A study of Ovis aries with 8 samples.

Results

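Cathelicidins and lactoferrin are antimicrobial proteins of myeloid cells, and here they were followed through 7 probes for 5 sheep genes: SC5, CATHL3, BAC5, CATHL1B and LTF. The probes were found by their descriptions on the array (cathelin, cathelicidin, BAC7.5, bactinecin or bactenecin, procyclic dodecapeptide, myeloid antimicrobial or lactoferrin, in any case), which gave 11 of the 15208 spots and 7 of the 15008 different probes that were not controls. The genes were selected on their levels: the 4 cathelicidins were chosen because they were lower after aldosterone in these same arrays, so the difference between the groups is described below with its error, and no p-value is given for a member. All 7 probes were well above background on all 8 arrays, so all passed the filter on dim probes.

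RNA came from the lungs of sheep fetuses at about 130 days of gestation, where term is 147 days. In 4 sets of twins, 1 fetus received 0.2 mg of aldosterone, an adrenal steroid that binds the mineralocorticoid receptor, by infusion over 48 hours, and its twin received vehicle as the control. All fetuses had undergone surgery, with infusions begun 5 days later. Each lung gave 1 array, so both groups held 4 lungs, and the comparison asks how aldosterone alters gene expression in the fetal lung near term. The RNA was that of lung tissue and not of sorted cells, so that fewer cells of a type and less RNA per cell cannot be told apart.

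Levels are given as log2 intensity less the 75th percentile of the same array, so that 0 is the 75th percentile. A level compares arrays for 1 probe and does not rank different genes. The arrays shared 1 slide, and their share of spots well above background was 76.5% to 85.4%. Precision is limited by the number of arrays. Among the 12168 probes kept, limma called 0 (0%) with adjusted p below 0.05. Without adjustment it called 228 (1.87%), of which 155 were higher (1.27%) and 73 lower (0.6%) after aldosterone. With same-numbered lungs as a block, a pairing described below, it called 0 of the 12168 after adjustment and 539 without it. The surfactant genes SFTPA1, SFTPB and SFTPC, which mark alveolar type II cells, were well above background on all 8 arrays. Their log2 differences were -0.25 ± 0.23, -0.10 ± 0.25 and 0.03 ± 0.19 (limma SE). A limma SE is drawn toward the spread typical of all probes, so it does not measure the spread of 1 probe alone. The control lung of replicate 4 stood apart from the other controls for several inflammation genes. Its level was 2.60 for the neutrophil-attracting chemokine CXCL8, where the other controls lay between -3.34 and -2.77, and 0.90 for the cytokine IL1B, where they lay between -4.19 and -3.93.

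Cathelicidins are made as precursors with a conserved cathelin domain and a variable C-terminal peptide. In cattle the precursors are stored in the large granules of neutrophils, and elastase frees the peptide when the granules are discharged. Synthesis takes place mainly while the myeloid cell matures. Ruminants carry several cathelicidin genes side by side. Lactoferrin is an iron-binding protein of neutrophil secondary granules that glandular epithelia also secrete. In RefSeq's table for assembly ARS-UI_Ramb_v3.0, used for names and order only, the 4 cathelicidin genes stood in a single row in the order CATHL1B, CATHL3, BAC5 and SC5. Between them were 3 entries without a gene symbol and 0 with one. LTF followed on the same chromosome, with 40 entries between SC5 and LTF, 30 of them protein-coding.

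The probes are 60 bases long, and those of the cathelicidins cover the 3′ end of their transcripts. All 6 cathelicidin probes held the letters AATAAA, the common polyadenylation signal, as written on the probe strand, and the LTF probe held them on neither strand. Of all 15008 probes, 5.63% held AATAAA as written and 9.14% held it on either strand. The stretch around these letters is shown for 1 probe of each cathelicidin, with AATAAA in capitals and the probe written 5′ to 3′. The stretches are lined up on shared letters, so they do not measure how close the whole probes are. The LTF probe, of another protein family, is shown whole for contrast.
SC5: ttctggactctgagaAATAAAttcttgtga
CATHL3: ttctggacggtgaaaAATAAAttctggtga
BAC5: agtcagcatccaaaaAATAAAatcttgtgg
CATHL1B: ctactggatctgaaaAATAAActcttgtga
LTF: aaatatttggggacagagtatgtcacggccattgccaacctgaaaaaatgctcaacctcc

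Among the 6 pairings of the 4 cathelicidin genes, the longest run of bases shared by the whole probes was 7 to 12 bases. The best alignment without gaps matched 22 to 36 bases, with SC5 and CATHL3 the closest. BAC5 matched CATHL3 at 22, SC5 at 25 and CATHL1B at 27 bases. LTF shared runs of 5 to 8 bases with the cathelicidins and matched them at 18 to 23 bases, so the matches of BAC5 were little above those of LTF. No probe outside the members shared a run of 16 bases with a member probe on either strand. The 2 probes of BAC5 overlapped by 59 bases, as did the 2 of CATHL1B, so each such couple repeats a measurement of 1 site and is not a separate line of evidence. CATHL1B carries the synonyms CATHL1A, DODEA and DODEB in the gene table, and how far each probe also detects other cathelicidin copies was not tested.

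SC5 encodes a cathelicidin whose peptide is an alpha helix. Its level was -0.55, 1.81, 0.015 and -0.36 in the control lungs of replicates 1 to 4, and -0.78, -0.53, -1.32 and -1.52 in the aldosterone lungs of replicates 1 to 4. The control lung of replicate 2 lay far above the rest, and the groups overlapped by 0.021 between the lowest control and the highest aldosterone lung. The mean was 0.23 ± 1.08 (SD, n = 4) in controls and -1.04 ± 0.46 (SD, n = 4) after aldosterone. The log2 difference, aldosterone minus control, was -1.27 ± 0.49 (limma SE), a 2.41-fold lower level. Without the control lung of replicate 2 it was -0.74.

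The SC5 probe was printed 5 times on each array, which measures the error of the spot within an array. Over all spots the SD between spots of 1 array ran from 0.011 to 0.074, and the widest range within an array was 0.18. The control lungs, by comparison, ranged over 2.36. That range also holds the error of RNA preparation, labelling and hybridization, which single arrays per lung do not separate from differences between fetuses. Outlier flags fell on 7 of these 40 spot values. With those values kept in, the SC5 difference was -1.28.

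CATHL3, named BAC7.5 on the array, encodes a proline- and arginine-rich bactenecin. Its level was 1.00, 2.50, 1.99 and 0.51 in the controls of replicates 1 to 4, and 0.45, 0.37, 0.057 and 0.34 in the aldosterone lungs. The aldosterone lungs lay close together, and every one of them was below every control, by a margin of 0.060. It was the only 1 of the 7 probes whose groups did not overlap, where 0.452% of all probes had every aldosterone array below every control array. The mean of controls was 1.5 ± 0.91 (SD, n = 4), against 0.30 ± 0.17 (SD, n = 4) after aldosterone. The log2 difference was -1.20 ± 0.39 (limma SE), a 2.29-fold lower level. The margin is narrow, and whether groups overlap turned on single lungs for the other cathelicidins. Without the control lung of replicate 4 the groups of 5 probes did not overlap (CATHL3, and both overlapping probes of BAC5 and of CATHL1B). Without that of replicate 1 or the aldosterone lung of replicate 2 those of 2 probes did not (CATHL3 and SC5). The share of all probes without overlap is not given for these smaller sets of lungs, so nothing is read from these counts.

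BAC5, the other proline- and arginine-rich bactenecin measured, had a level of 1.88, 3.31, 2.27 and 1.11 in controls 1 to 4 on its brighter probe. In the aldosterone lungs it was 1.42, 1.67, 0.49 and 0.71. Controls 2 and 3 were the highest lungs, and control 4 lay below aldosterone lungs 1 and 2, so the groups overlapped. The log2 difference was -1.07 ± 0.45 (limma SE, n = 4 per group), a 2.10-fold lower level, and on the second probe it was -1.04 ± 0.46. The second probe read 1.78, 3.29, 2.23 and 1.05 in controls 1 to 4 and 1.39, 1.64, 0.55 and 0.63 after aldosterone, the same order of lungs within the controls. The 2 probes differed by 0.022 to 0.095 on any array. Without the control lung of replicate 2 these differences were -0.68 and -0.64.

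CATHL1B, named DODE on the array, encodes the cyclic dodecapeptide, a short peptide closed by a disulphide bond. On its brighter probe the level was 1.75, 2.99, 1.98 and 0.83 in controls 1 to 4 and 1.44, 1.40, 0.23 and 0.55 in the aldosterone lungs. The order of the lungs was close to that for BAC5, with control 4 again inside the range of the aldosterone lungs. The log2 difference was -0.98 ± 0.46 (limma SE, n = 4 per group), a 1.97-fold lower level, and -1.09 ± 0.44 on the second probe. That probe read 1.58, 2.91, 2.05 and 0.87 in controls 1 to 4 and 1.25, 1.21, 0.085 and 0.48 after aldosterone, so controls 2 and 3 were again the highest. The probes differed by 0.044 to 0.19 on any array. Without the control lung of replicate 2 the differences were -0.61 and -0.74.

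LTF, which binds iron, had levels of -1.84, -0.81, -1.33 and -2.42 in controls 1 to 4 and of -2.29, -1.43, -2.99 and -1.80 in the aldosterone lungs. The groups overlapped widely, and in replicate 4 the aldosterone lung was the higher of the couple. The means were -1.60 ± 0.69 (SD, n = 4) and -2.13 ± 0.67 (SD, n = 4). The log2 difference was -0.53 ± 0.41 (limma SE), a 1.44-fold lower level. Single lungs moved this value both ways. It was -0.24 without the aldosterone lung of replicate 3, -0.27 without the control lung of replicate 2 and -0.15 without both lungs of replicate 3. It was larger, at -0.76, without the aldosterone lung of replicate 2, -0.80 without the control lung of replicate 4 and -0.91 without both lungs of replicate 4, and -1.08 with array weights.

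Across the members, the same lungs were high and low. The control lung of replicate 2 was the highest of the 8 on all 7 probes and that of replicate 3 the next. The aldosterone lung of replicate 3 was the lowest on 6 probes, and for SC5 the lowest was that of replicate 4. Among control lungs alone the highest stood above the lowest by 3.05-fold for LTF and by 3.98-fold to 5.14-fold for the cathelicidin probes. The SD within groups, pooled over both groups, was larger for each member than for 91.1% to 95.2% of all probes kept. These genes were therefore among the more variable on the array apart from any difference between the groups.

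The lungs of the same replicate number were taken as twins, a pairing described with the processing below. Of the 7 probes, 6 were lower in the aldosterone lung of all 4 pairs, where 5.64% of all probes were lower in all 4. The direction was used in choosing the members, so nothing is read from this count. For the cathelicidins the sizes were uneven. In pairs 2 and 3 the log2 differences of the 6 cathelicidin probes lay between -2.34 and -1.34, and in pair 1 between -0.55 and -0.23. In pair 4 the probes of CATHL3, BAC5 and CATHL1B lay between -0.42 and -0.16, while SC5 had -1.16. SC5 thus parted from the other cathelicidins in pair 4. LTF had -0.46, -0.62, -1.66 and 0.62 in pairs 1 to 4. With the pair as a block the limma SE was 0.32 for SC5, 0.36 for CATHL3 and 0.35 for LTF. It was 0.28 for the brighter probe of BAC5 and 0.30 for that of CATHL1B. These SEs are drawn toward the smaller spread of most probes. The SD of the 4 pair differences themselves was 0.86 for SC5, 0.98 for CATHL3 and 0.93 for LTF. For the brighter probes of BAC5 and CATHL1B it was 0.74 and 0.80.

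Of the 7 probes, 7 had a lower mean after aldosterone, as did 48.5% of all probes, and 5 were lower by at least 1 on the log2 scale, as were 0.296% of all probes. The median difference over the members was -1.07, and over all probes 0.0073. These figures describe the choice of the members and are no support for it. The members lay between rank 13 for SC5 and rank 240 for LTF among the 12168 probes when ordered from the most negative difference, with CATHL1B's 2 probes at ranks 28 and 43.

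On the slide, replicates 1 and 2 lay in row 1 and replicates 3 and 4 in row 2, so each row held both groups. In row 1 the log2 difference was -1.29 for SC5 and -1.34 for CATHL3, and in row 2 -1.25 and -1.05. For LTF it was -0.54 in row 1 and -0.52 in row 2. The mean differences were thus of like size in both rows, but each rests on 2 pairs. For SC5 these pairs were -0.23 and -2.34 in row 1 and -1.34 and -1.16 in row 2. The limma SE within a row, also drawn toward the spread of all probes, was 0.80 and 0.24 for SC5 in rows 1 and 2. For CATHL3 it was 0.52 in both rows, and for LTF 0.47 and 0.55.

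The members also followed each other from lung to lung. Over the 8 arrays, Pearson's r between the 4 cathelicidin genes, on the brighter probe of each, ran from 0.89 to 0.99 in the 6 pairings. It ran from 0.79 to 0.99 after the mean of each group was removed. For LTF with each cathelicidin r was 0.72 to 0.85, and 0.66 to 0.84 with group means removed. These values are descriptive. The arrays are taken as pairs, share a slide and include the high control lung of replicate 2, and the cathelicidin probes share some sequence.

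Outside the members, 704 named genes with complete values were set against the mean of the 6 cathelicidin probes over the 8 arrays. That mean was 1.24, 2.80, 1.75 and 0.67 in controls 1 to 4 and 0.86, 0.96, 0.013 and 0.20 in the aldosterone lungs. The closest was RABL2B, a small GTPase of cilia, at r = 0.90, followed by CAPNS1, the small calpain subunit, at 0.81 and AHSP, the chaperone of alpha-globin in red cell precursors, at 0.78. The other 7 of the 10 closest were the cytokine MIF (0.76), the adaptor protein YWHAE (0.76), the growth regulator MYC (0.75), SMAD4 (0.74), the erythropoietin receptor EPOR (0.74), PSIP1 (0.73) and the proteasome subunit PSMB7 (0.73). With group means removed, RABL2B (0.93), CAPNS1 (0.91), AHSP (0.85), MIF (0.84) and MYC (0.83) again stood among the 10 closest, beside SLC25A10 (0.85), TLR3 (0.81), SMO (0.80), ARFIP2 (0.80) and TIE1 (0.80). The median over the 704 genes was -0.13 and, with group means removed, -0.087. LTF, at 0.83, was exceeded by 1 of the 704 genes, and by 6 with group means removed.

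Only named probes could be matched to gene lists, and 13608 of the 15008 probes (90.7%) carried no usable gene name here. Of a list of 30 neutrophil granule and surface genes, 5 outside the members were measured, and the mean after aldosterone was above that of controls for 4 and below it for 1. None passed limma's adjusted threshold, and the median log2 difference was 0.19. The lower one was ITGAM, the alpha chain of the complement receptor on neutrophils and monocytes, at -0.84 ± 0.65 (limma SE, n = 4 per group). It exceeded background clearly in 3 controls and in 1 aldosterone lung. Its levels were -5.26, -4.38, -7.23 and -6.82 in controls 1 to 4 and -6.64, -5.72, -7.07 and -7.61 in the aldosterone lungs. Control 2 was again the highest lung, while control 3, the second highest for every cathelicidin, had the second lowest level. ITGAM was lower in 3 of 4 pairs, and its r to the cathelicidin mean was 0.72, or 0.67 with group means removed. ITGB2, the beta chain that partners ITGAM, gave 0.14 ± 0.40. Lysozyme (LYZ) gave 0.22 ± 0.62, the gelatinase MMP9 0.19 ± 0.42 and CHI3L1 0.35 ± 0.77. Despite their higher means, ITGB2 and LYZ were lower in 3 of 4 pairs. In pair 2 they were higher, by 1.24 and 1.87. CHI3L1 was lower in 2 of 4 pairs and MMP9 in 1 of 4. MMP9 was well above background on only 6 arrays. The other 25 genes of the list, among them those of myeloperoxidase, elastase and S100A8, were not analysed here.

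Of 48 different genes measured in 11 lists, 0 were called by limma after adjustment and 2 without it (CXCR4 and HRH2). With the pair as a block, 0 were called after adjustment and 6 without it. The means of 22 were higher and of 26 lower, with a median of -0.042. Unless stated, the SEs of list genes are from the fit by group alone. With the pair as a block the SE was 0.27 for ITGAM and 0.19 for CXCR4, but 0.20 for KITLG. Among the oxidase and chemotaxis genes 2 of 4 were higher. CYBB, the catalytic subunit of the phagocyte oxidase, gave 0.47 ± 0.38, the chemokine CXCL1 0.31 ± 0.52, CXCL8 -1.45 ± 1.23 and IL1B -0.87 ± 1.08. All 4 measured genes of macrophages and monocytes had higher means, and 0 passed limma's adjusted threshold. CD14, a receptor for lipopolysaccharide, gave 0.42 ± 0.23 and the protease CTSB 0.33 ± 0.18. The other 2 were near 0, with the protease CTSS at 0.03 ± 0.36 and lower in 3 of 4 pairs, and the IgG receptor FCGR1A at 0.08 ± 0.49 and lower in 2 of 4. The linear level summed over all 4 of these macrophage and monocyte genes ran from 4.25 to 5.88 in controls and from 3.98 to 9.03 after aldosterone. This sum mostly follows the probes of CTSS and CTSB, whose control means were 1.34 and 1.02, against -2.08 for CD14 and -3.89 for FCGR1A. Both proteases were highest in the aldosterone lung of replicate 2, at 2.29 and 1.85. The measured myeloid growth and transcription factors had 2 higher genes of 6. CXCR4, the receptor that holds neutrophils in the bone marrow, gave 0.77 ± 0.32 and was higher in all 4 pairs, and CEBPB gave 0.09 ± 0.30. The growth factor of KIT, KITLG, gave -0.28 ± 0.18 and HIF1A -0.35 ± 0.24.

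In the list of mast cells, basophils and eosinophils, 4 of 6 genes had a lower mean (median -0.26). FCER1A, the alpha chain of the IgE receptor, gave -0.99 ± 0.49 and the tryptase TPSB2 -0.78 ± 0.50, each lower in 3 of 4 pairs. The histamine receptor HRH2 gave -0.45 ± 0.18 and the receptor chain FCER1G 0.01 ± 0.30. T and natural killer cell genes had 3 higher and 4 lower of 7 (median -0.08). The T cell receptor chains CD3E and CD247 gave -0.08 ± 0.35 and 0.39 ± 0.19, CD5 gave 0.03 ± 0.31, and the transcription factor GATA3 gave -0.58 ± 0.50 and was lower in 4 of 4 pairs. The single B cell gene measured, CR2, gave 0.16 ± 0.89.

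Of the 3 red blood cell genes measured, AHSP was among the 10 genes closest to the cathelicidins in pattern, and CA1 was not. AHSP had levels of -3.39, -0.79, -2.07 and -4.72 in controls 1 to 4 and of -3.71, -1.09, -3.96 and -5.10 in the aldosterone lungs. As for the mean of the cathelicidin probes, the controls ran in the order 2, 3, 1 and 4. The aldosterone lungs ran in the order 2, 1, 3 and 4 for AHSP and 2, 1, 4 and 3 for the cathelicidin mean. The like order follows from the correlation on these same arrays that singled AHSP out, so nothing further is read from it. The log2 difference of AHSP was -0.72 ± 0.99, or ± 0.29 with the pair as a block, and it was lower in 4 of 4 pairs. HBB, the beta-globin gene, gave -0.40 ± 0.69 with r = 0.66 to the cathelicidin mean, and CA1, the red cell carbonic anhydrase, -0.76 ± 0.86 with r = 0.068. All 3 had lower means, and 0 passed limma's adjusted threshold. Their summed linear level ran from 23.6 to 146 in controls and from 24 to 118 after aldosterone. This sum mostly follows the HBB probe, whose control mean was 5.87, against -2.74 for AHSP and -0.00067 for CA1. The part of blood cell content in the cathelicidin difference was not tested.

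Lactoferrin belongs also to the secretions of the airway, and to iron metabolism. Of the other 10 measured genes of epithelial and mucosal defence, 4 were higher and 6 lower (median -0.06), LYZ and CD14, named above, among the higher. SFTPA1 was at -0.25 ± 0.23, SCGB3A2, a club cell secretoglobin, at -1.14 ± 0.66 and the nitric oxide synthase NOS2 at -0.11 ± 0.46. SCGB3A2 was lower in 2 of 4 pairs and had r = 0.11 to the cathelicidin mean. Of the iron genes, transferrin (TF) gave -0.17 ± 0.35, the ferritin heavy chain FTH1 -0.01 ± 0.14 and the metal transporter SLC11A1 0.42 ± 0.75. None of these 13 genes passed the adjusted threshold in limma.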

How the data were processed

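Per the file headers, the authors scanned 1-colour Agilent arrays made from 450 ng of RNA each and deposited spot intensity on a linear scale from Agilent Feature Extraction 10.1.1.1, background-subtracted and detrended within the array, with no normalization between arrays recorded. In the series table that the authors deposited, each column of log2 values is that array's log2 signal shifted by a constant (r = 1 on each array).

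Here log2 intensity less the array's 75th percentile was averaged over spots of a probe, leaving out 74 flagged values. Probes well above background on at least 4 arrays were kept (12168). Names came from the RefSeq table (accession 727 probes, gene ID 139, symbol 497, synonym 20); 17 kept the file's name. For a gene with several probes the brightest was used. Groups were compared with limma 3.58.1 in R 4.3.3 by group alone (two-sided), and p-values were adjusted by Benjamini-Hochberg across the 12168 probes. The code was tested on simulated data. The members, gene lists and rules were chosen with earlier results of these data known. Named beside the members were the 4 genes of each list with the highest mean, those with an unadjusted p under 0.05, all genes of lists with 5 or fewer measured, and the 10 genes most alike in pattern.

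After removal of group means, same-numbered lungs correlated at 0.28 to 0.54 over 12146 probes, and different-numbered ones at -0.45 to 0.20. Together with the labels' twin design this was taken to pair the samples. The labels do not state that the number marks the twins. Same-numbered lungs also shared a slide row, so the correlation alone does not separate twins from place on the slide. Alternatives were the pair as a block, median centring, normexp (offset 50) with quantile normalization, the authors' values, no filter or a stricter one, array weights, the slide row, and each lung or pair left out. Keeping flagged spots was added after the data were seen, as were the counts of member probes without each lung or pair.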

Additional observations from a re-analysis of the deposited data

Results flagged for a closer look

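No group of 4 lungs held a lung that stood apart by Dixon's test for any member probe. For the other 51 genes named or shown as alike in pattern, 14 of the 102 groups tested held one, where chance gives about 1 in 20. The groups share the same lungs, and some genes were included for their likeness to the cathelicidin mean. Nothing is therefore read from this count. The gap to the nearest lung, as a share of the group's range, is given for each lung that stood apart. Control replicate 4 exceeded the remaining controls for CXCL8 (0.904), IL1B (0.949), NOS2 (0.860), FCGR1A (0.843) and GATA3 (0.832), and lay below them for TIE1 (0.880) and TLR3 (0.834). In the same lung CATHL3, BAC5, CATHL1B and LTF had the lowest level of the controls. The control lung of replicate 1 was below the others for KITLG (0.902). Among the aldosterone lungs, that of replicate 2 was above its group for CXCL8 (0.855) and CTSB (0.877), that of replicate 4 below for MMP9 (0.943), and that of replicate 1 below for FTH1 (0.886) and SFTPC (0.861) and above for EPOR (0.903).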

How the results depend on the processing

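Over 23 alternatives the mean log2 difference of the 7 probes stayed below 0, from -1.60 with array weights to -0.65 without the control lung of replicate 2, against -1.03 as reported; leaving out 1 lung or 1 pair gave -1.34 to -0.65. Each probe also stayed below 0, and SC5 ranged from -1.83 to -0.74, CATHL3 from -1.70 to -0.86, the brighter probe of BAC5 from -1.67 to -0.68, that of CATHL1B from -1.59 to -0.61 and LTF from -1.08 to -0.15. The mean difference is the same by construction (-1.03) with the replicate block, the slide row as a block, no filter or the stricter filter. The direction was used in choosing the members, so nothing is read from the differences staying below 0. The count of member probes whose groups did not overlap was 1 and ran from 1 to 5 when single lungs were left out. The share over all probes is not given for those smaller sets, so nothing is read from that range. None of the 21 settings with a test brought a probe of the array or a gene of the lists past the adjusted threshold in limma (0 in each, the replicate block included), while probes with an unadjusted p under 0.05 ran from 113 without both lungs of replicate 3 to 818 with array weights. The cause of the larger differences with array weights was not tested. Precision is limited by 4 lungs in each group, and no member was near background.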
